A study of Mus musculus with 2 samples.

Results

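The mouse genes Tspan8, Folr1, Ugt2b34, Olfm3, Limch1, Sult1d1 and Hspb8 are 7 of the 33038 genes listed in either of 2 single-cell libraries of pancreatic islets. They were picked by name as genes raised in gamma cells, the islet cells that make pancreatic polypeptide, so their level in those cells is given as a description with no test. No threshold for that choice was given. The question asked of each gene was whether it followed Ppy, the gene of pancreatic polypeptide, into cells that held Ppy together with Gcg (glucagon, the hormone of alpha cells) or with Sst (somatostatin, the hormone of delta cells).

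Gamma cells are a small population among the endocrine cells of the islet, and pancreatic polypeptide is a peptide of the neuropeptide Y family that is released after meals and restrains pancreatic secretion and appetite. The 7 genes code for proteins of unlike kinds. Tspan8 is a tetraspanin, a protein that spans the membrane several times and organises other membrane proteins, and Folr1 is a membrane-anchored receptor that takes up folate. Ugt2b34 and Sult1d1 are conjugating enzymes, a UDP-glucuronosyltransferase and a sulfotransferase. Olfm3 is a secreted protein with an olfactomedin domain, Limch1 binds actomyosin, and Hspb8 is a small heat shock protein that works with the co-chaperone Bag3.

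RevGel-seq, in which each cell is coupled to a barcoded bead and held apart from the others in a reversible hydrogel, was applied to dissociated islets of 8-week-old male C57BL/6J mice under control conditions. Both libraries were technical replicates of 10000 input cells from the same islet preparation, so the spread between them holds no difference between animals. Library 1 held 735 cells with 15931154 deduplicated transcripts (unique molecular identifiers, UMIs) and library 2 held 748 cells with 17440292, and the tables shared 0 barcodes.

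Cells were grouped by which of insulin (Ins1 and Ins2 added), Gcg, Sst and Ppy reached 1% of their UMIs. Below, cells with Ppy are those that reached this limit, and cells without it could still hold some. Ppy alone passed in 54 cells of library 1 and 68 of library 2, and these Ppy-only cells stand here for gamma cells. Gcg and Ppy passed together in 65 and 86 cells, and Sst and Ppy together in 77 and 71 cells. The cells with a single other hormone were 182 and 174 Gcg-only, 35 and 23 Sst-only, and 182 and 190 insulin-only cells. The median Ppy-only cell held 28784.5 UMIs in library 1 and 30339.5 in library 2, a Gcg+Ppy cell 20505 and 20032, a Gcg-only cell 16413.5 and 19534, an Sst+Ppy cell 13459 and 15493, and an Sst-only cell 13123 and 13692. The Ppy-only cells fitted their label, with Ppy at a median of 36.3% and 36.5% of a cell's UMIs, but 2 of 11 listed gamma cell markers, Aqp3 and Abcc9, had 0 UMIs in them.

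The genes lie on 4 chromosomes of GRCm38. Ugt2b34 (ENSMUSG00000029260, chr5:86889767-86906937, minus strand) and Sult1d1 (ENSMUSG00000029273, chr5:87554645-87569027, minus strand) are 648 kb apart, with 29 annotated genes between them, of which 11 code for protein. Limch1 (ENSMUSG00000037736, chr5:66745827-67057158, plus strand) and Hspb8 (ENSMUSG00000041548, chr5:116408491-116422864, minus strand) are on the same chromosome. Tspan8 (ENSMUSG00000034127, chr10:115816832-115849893, plus strand), Folr1 (ENSMUSG00000001827, chr7:101858331-101870788, minus strand) and Olfm3 (ENSMUSG00000027965, chr3:114904078-115125722, plus strand) complete the set. All are annotated as protein coding. Limch1 overlaps 3 small genes on its own strand and 4 on the other, and Tspan8 and Folr1 each overlap 1 gene on the other strand, so reads in those stretches may be uncertain.

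The promoters of Tspan8 and Hspb8, which were higher in Gcg cells with Ppy, are printed beside those of Ugt2b34 and Limch1, which were not called there, and of Ppy. Each runs from 250 bases before to 50 bases after a RefSeq transcript start on GRCm38.p6 and is written 5′ to 3′ on the strand of the gene. Capitals mark 3 motifs on either strand, which can overlap: TATAAA, the core of the TATA box, TGTTTAC, a core of forkhead sites, and TAAT, a core of homeodomain sites. The stretches are chr10:115817034-115817333 (plus strand) for Tspan8, chr5:116422815-116423114 (minus) for Hspb8, chr5:86906888-86907187 (minus) for Ugt2b34, chr5:66745639-66745938 (plus) for the first of 3 Limch1 starts and chr11:102101270-102101569 (minus) for Ppy.
Tspan8: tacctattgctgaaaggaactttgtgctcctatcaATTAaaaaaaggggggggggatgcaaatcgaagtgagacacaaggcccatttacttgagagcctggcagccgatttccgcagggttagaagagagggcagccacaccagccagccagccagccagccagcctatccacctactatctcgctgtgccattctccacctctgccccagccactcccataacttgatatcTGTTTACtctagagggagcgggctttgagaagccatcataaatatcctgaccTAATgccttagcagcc
Hspb8: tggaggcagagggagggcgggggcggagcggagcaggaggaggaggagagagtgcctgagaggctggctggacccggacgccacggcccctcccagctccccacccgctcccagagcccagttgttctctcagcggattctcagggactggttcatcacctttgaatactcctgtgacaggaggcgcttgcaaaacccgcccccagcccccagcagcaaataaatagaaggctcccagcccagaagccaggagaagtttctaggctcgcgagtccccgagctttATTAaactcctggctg
Ugt2b34: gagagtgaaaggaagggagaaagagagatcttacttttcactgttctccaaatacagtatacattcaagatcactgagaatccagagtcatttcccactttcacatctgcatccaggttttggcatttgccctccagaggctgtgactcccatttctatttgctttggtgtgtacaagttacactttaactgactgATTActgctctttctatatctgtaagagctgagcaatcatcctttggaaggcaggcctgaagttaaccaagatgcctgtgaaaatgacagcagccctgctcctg
Limch1: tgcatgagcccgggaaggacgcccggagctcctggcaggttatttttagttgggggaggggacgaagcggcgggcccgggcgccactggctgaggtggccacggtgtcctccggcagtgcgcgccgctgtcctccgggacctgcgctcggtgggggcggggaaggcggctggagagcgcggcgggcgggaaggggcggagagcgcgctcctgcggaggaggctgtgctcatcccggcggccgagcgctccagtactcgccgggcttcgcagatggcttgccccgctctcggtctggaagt
Ppy: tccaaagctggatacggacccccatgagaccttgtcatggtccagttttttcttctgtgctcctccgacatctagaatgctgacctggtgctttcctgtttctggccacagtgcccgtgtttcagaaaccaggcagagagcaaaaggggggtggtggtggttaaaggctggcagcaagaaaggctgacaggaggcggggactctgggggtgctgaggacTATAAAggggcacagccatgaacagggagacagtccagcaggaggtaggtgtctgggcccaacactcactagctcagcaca

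TGTTTAC was found once in the Tspan8 promoter, once in that of Sult1d1 and once at the second Limch1 start, and 3.65% of all 32851 promoters of this length hold it. TATAAA, held by 13.6% of promoters, was found once each at Ppy, at Sult1d1 and at the third Limch1 start. TAAT was found at least once at each start of the 6 genes with an entry other than the first of Limch1, but 58.0% of all promoters hold it, and Ppy had 0. None of these letters is shared by all of the promoters read. Folr1 had no entry.

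Tspan8 was highest in Ppy-only cells. It had 484 CPM, its UMIs scaled to 1000000 UMIs of the group, in library 1 and 452 in library 2, or 468 ± 22.5 CPM (SD, n = 2). Sst+Ppy cells came next with 301 and 331 CPM, followed by Sst-only cells with 246 and 274. Gcg+Ppy cells had 96.3 and 116 CPM, insulin-only cells 37.6 and 31.1, and Gcg-only cells 14.4 and 12.4. The libraries of neighbouring groups did not overlap at any step of this order.

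Folr1 separated the cells less. It had 249 and 202 CPM in Ppy-only cells, 235 and 157 in Sst-only cells and 149 and 184 in Sst+Ppy cells, and the range of the Sst-only libraries overlapped both others. Gcg+Ppy cells, with 86.7 and 84.3 CPM, lay below all of them and above insulin-only cells, with 41.3 and 34.3, and Gcg-only cells, with 30.8 and 31.9.

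Ugt2b34 had another order. Ppy-only cells led with 209 and 202 CPM, or 205 ± 4.86 (SD, n = 2). Gcg+Ppy cells had 95.05 and 106 CPM and Gcg-only cells 54.1 and 81.3, so that cells with Gcg ranked above insulin-only cells, with 41.3 and 39.0. Cells with Sst were lowest, with 19.9 and 24.6 CPM when Ppy was present and 11.9 CPM in library 1 without it. In library 2 the Sst-only cells held 0 UMIs of Ugt2b34, which at 331967 UMIs allows up to 9.04 CPM. Of its paralogs, Ugt2b1, Ugt2b5, Ugt2b35 and Ugt2b36 had 4, 36, 36 and 40 UMIs in all cells together, and how reads common to such copies were assigned is not given in the sources used here.

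Sult1d1, the other conjugating enzyme, had 138 and 107 CPM in Ppy-only, 101.4 and 160 in Sst-only and 129 and 90.6 in Sst+Ppy cells, with overlap among these groups. Insulin-only cells had 57.2 and 47.4 CPM, Gcg+Ppy cells 37.2 in each library, and Gcg-only cells 24.2 and 17.9. The ordering of the last 3 groups was the same in both libraries.

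Olfm3 was highest in Ppy-only cells and in cells with Sst. It had 63.4 and 50.6 CPM in Ppy-only, 39.7 and 84.3 in Sst-only, and 48.5 and 56.1 in Sst+Ppy cells, which overlapped. Gcg+Ppy cells had 26.3 and 25.3 CPM and Gcg-only cells 6.33 and 11.1. Insulin-only cells held 3 UMIs of it in library 1 and 0 in library 2, where a count of 0 allows up to 0.741 CPM.

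Among the 6 groups tested, Limch1 was the only 1 of the 7 for which insulin-only cells came next after Ppy-only cells. Ppy-only cells had 111 and 160 CPM, insulin-only cells 52.1 and 56.8, Sst+Ppy cells 27.8 and 26.1, and Sst-only cells 9.94 and 15.1. In Gcg-only cells it was close to absent, with 3 UMIs in library 1 and 22 in library 2, of which a single cell held 18. In Gcg+Ppy cells it had 1 UMI in library 1 and 4 in library 2.

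Hspb8 was the most even of the 7 in Ppy-only cells, with 80.1 and 80.8 CPM. Gcg+Ppy cells had 34.04 and 35.67 CPM, Sst+Ppy cells 23.9 and 24.6, Sst-only cells 19.9 and 15.1, Gcg-only cells 11.5 and 14.8, and insulin-only cells 9.18 and 3.21. The libraries of neighbouring groups did not overlap, although the lower Sst-only library stood only just above the higher Gcg-only library.

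**Figure D1:**
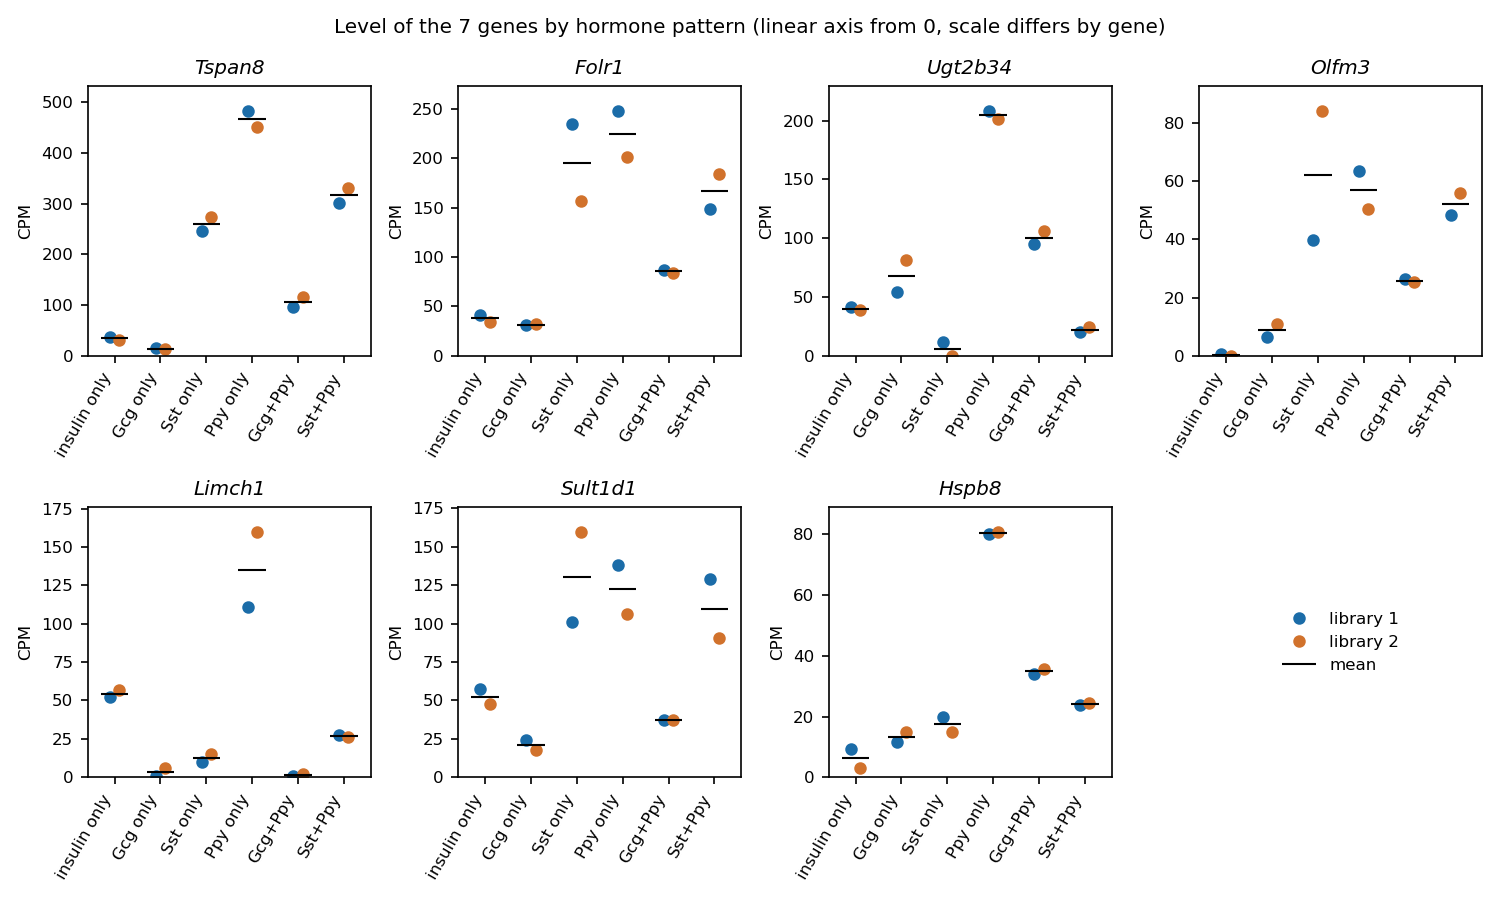
CPM of the 7 genes (linear axes from 0, each with its own scale) in the 6 groups of cells, with 1 point per library and a bar at the mean of both. Ppy-only cells have the highest mean for Tspan8, Folr1, Ugt2b34, Limch1 and Hspb8, while for Olfm3 and Sult1d1 the mean of Sst-only cells (62.0 and 131 CPM) is above that of Ppy-only cells (57.0 and 122 CPM), and Limch1 is near 0 in Gcg-only and Gcg+Ppy cells.

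Counted cell by cell, the median Ppy-only cell held UMIs of 6 of the 7 genes in either library, and 13 and 20 of them held all 7. Gcg+Ppy and Sst+Ppy cells held a median of 3, Sst-only cells 3, insulin-only cells 2 and Gcg-only cells 1. Ppy-only cells are also the deepest of these groups. After every cell was thinned at random to 4000 UMIs, 66.7% and 72.1% of Ppy-only cells still held at least 3 of the 7 genes, against 9.23% and 14.0% of Gcg+Ppy cells, 24.7% and 21.1% of Sst+Ppy cells, 20% and 30.4% of Sst-only cells and 0.549% and 0.575% of Gcg-only cells.

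The cells with Gcg were compared first. Their UMIs were summed by group and library and tested with edgeR, Gcg+Ppy against Gcg-only cells, with p-values adjusted over all 13507 genes tested. Of the 7 genes, 4 were higher in Gcg cells with Ppy (Tspan8, Folr1, Olfm3 and Hspb8) and 0 were lower, where 0.237% of all genes tested were higher and 0.111% lower. The median log2 fold change of the 7 was 1.43, against 0.00 over all genes. The gate itself fixed the difference in Ppy, which was 5.69 on the log2 scale. The 7 genes had been picked as raised in gamma cells, with earlier results of these data known. This comparison splits cells on Ppy, so calls among the 7 are not independent of that choice. The same limit holds for the comparison of Sst cells below.

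Tspan8 rose most, from 50 and 47 UMIs in Gcg-only cells to 150 and 225 in the fewer Gcg+Ppy cells, or by 3.03 as a log2 fold change (SE 0.16, adjusted p = 3.65e-13 by edgeR). Folr1 rose by 1.48 on the same scale (SE 0.17, edgeR adjusted p = 6.36e-06), Olfm3 by 1.58 (SE 0.32, adjusted p = 0.0139) and Hspb8 by 1.43 (SE 0.26, adjusted p = 0.00433). For each of these 4, both Gcg+Ppy libraries were above both Gcg-only libraries. The calls of Tspan8 and Folr1 held under every alternative that gave an adjusted p. Those of Olfm3 and Hspb8 ended after thinning to 4000 UMIs, with edgeR adjusted p = 0.288 and 0.510, and DESeq2 gave them no adjusted p.

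Sult1d1 and Ugt2b34 did not pass. Sult1d1 differed by 0.86 on the log2 scale (SE 0.23, adjusted p = 0.108 by edgeR) and Ugt2b34 by 0.60 (SE 0.17, adjusted p = 0.126). In both cases the 2 libraries with Ppy were above the 2 without it, and an interval of 2 SE to either side ran from 0.39 to 1.33 for Sult1d1 and from 0.26 to 0.94 for Ugt2b34, so that a log2 fold change of 1 was inside the interval of Sult1d1 alone. Both were called when genes with low counts were kept in the test (edgeR adjusted p = 0.0143 and 0.0197).

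Limch1 was close to absent from cells with Gcg, whether or not they held Ppy. Its log2 fold change was −1.20 with an SE of 0.80 (edgeR adjusted p = 0.753), a value that rests on the few UMIs given above and changed sign under other settings. Of Gcg+Ppy cells, 1 of 65 and 2 of 86 held a UMI of it, against 28 of 54 and 44 of 68 Ppy-only cells. With all cells thinned to 4000 UMIs the shares were 1.54% and 2.33% against 22.2% and 36.8%. Gcg-only cells, a type with little Limch1, had 1.099% and 2.87% before thinning, at median depths of 16413.5 and 19534 UMIs, and 0.549% and 0.575% after it. The Gcg+Ppy shares came from 1 and 2 cells, and their exact 95% intervals before thinning (0.0389% to 8.28% and 0.283% to 8.15%) held the shares of Gcg-only cells.

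The Gcg+Ppy cells stood between both single-hormone groups in other genes as well. The summed level of 11 alpha cell markers other than Gcg was 36524 and 37216 CPM in Gcg-only, 18606 and 18886 in Gcg+Ppy and 2483 and 2321 in Ppy-only cells. Of the 10 that were tested, 3 were lower with Ppy, among them Ttr (transthyretin), which fell by 1.02 on the log2 scale (edgeR adjusted p = 1.09e-07). Loxl4 alone of the alpha markers had 0 UMIs. The part of these cells' mixed makeup in the higher levels of the 4 genes was not tested. Scrublet called 2 of the 151 Gcg+Ppy cells as doublets, and without all called cells the same number of the 7 genes, 4, was higher.

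**Figure D2:**
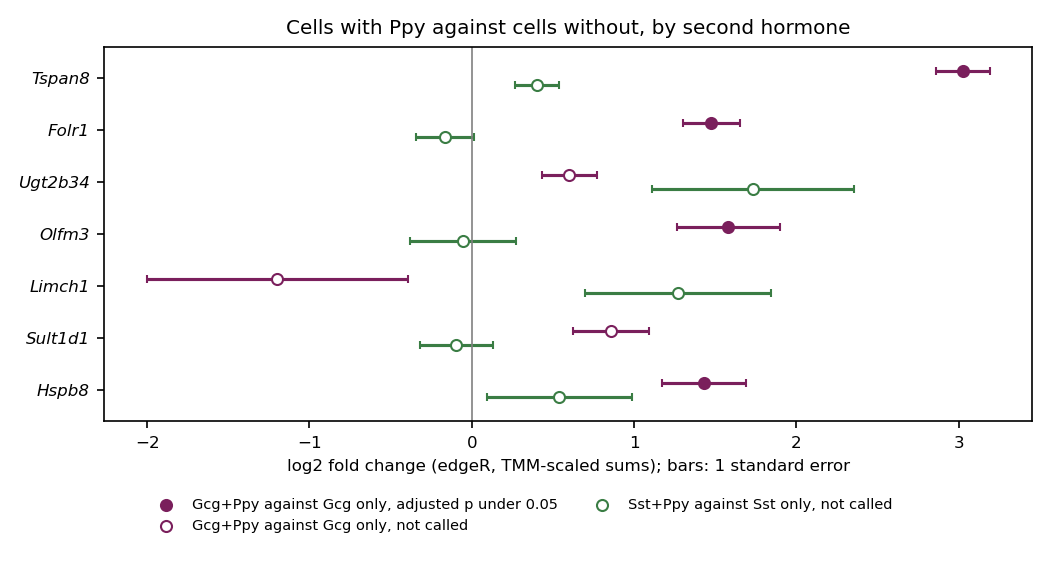
Log2 fold change of each gene from edgeR (x axis, TMM-scaled sums of 2 libraries per group) in Gcg+Ppy against Gcg-only cells (purple) and Sst+Ppy against Sst-only cells (green), with bars of 1 standard error. Filled points have an adjusted p under 0.05: 4 of 7 in the first comparison, with Tspan8 at 3.03, and 0 of 7 in the second.

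The cells with Sst were compared in the same way. Of the 7 genes, 0 were higher and 0 were lower in Sst+Ppy than in Sst-only cells by edgeR, where 0.0222% of all genes tested were higher and 0.0074% lower, and DESeq2 also called 0. At an unadjusted p under 0.05 there were 3 (Tspan8, Ugt2b34 and Limch1), as there were 1035 of 13507 genes over all. The median log2 fold change of the 7 was 0.40, against 0.02 over all genes. With 35 and 23 Sst-only cells holding 503189 and 331967 UMIs, the low genes rested on few counts.

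Ugt2b34 had 6 and 0 UMIs in Sst-only and 25 and 32 in Sst+Ppy cells, a difference of 1.73 on the log2 scale (SE 0.62, adjusted p = 0.522 by edgeR). Limch1 had 5 UMIs in each Sst-only library and 35 and 34 in Sst+Ppy cells, a difference of 1.27 on the log2 scale (SE 0.57, adjusted p = 0.613 by edgeR). In either gene the Sst+Ppy libraries were above the Sst-only ones, but few cells carried the UMIs. A single cell of library 2 held 23 of the 34 UMIs of Limch1, and single cells held 9 of 25 and 11 of 32 of Ugt2b34. With the highest cell of each gene and library left out, the Sst+Ppy level of Limch1 went from 27.0 to 14.2 CPM and that of Ugt2b34 from 22.2 to 14.4 CPM.

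Tspan8 differed by 0.40 on the log2 scale (SE 0.14, edgeR adjusted p = 0.522), with an interval of 2 SE to either side from 0.13 to 0.67. For Folr1 the interval was −0.52 to 0.19, for Sult1d1 −0.55 to 0.36 and for Olfm3 −0.71 to 0.60, so that a log2 fold change of 1 lay outside the interval of each of these 4 genes. For Hspb8, at 0.54 with an interval of −0.36 to 1.44, such a change could not be told from none at this depth.

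The change with Ppy was larger in Gcg than in Sst cells for 2 of the 7 genes when the difference itself was tested, where 0.0814% of all genes tested were higher and 0.0444% lower. Tspan8 differed by 2.63 (SE 0.22, edgeR adjusted p = 3.02e-08) and Folr1 by 1.64 (SE 0.25, edgeR adjusted p = 0.00136). For Olfm3 the difference was 1.63, as large as for Folr1, with an SE of 0.46 and an edgeR adjusted p of 0.341, and it was not called. Ppy itself rose more in the Gcg cells, by 1.22 on this scale, and Sst-only cells already held both genes at 157 to 274 CPM.

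Among cells with Ppy under 1% of UMIs, the 7 genes did not go together. Some Ppy remained in these groups, at 3013 and 4362 CPM in Sst-only, 2078 and 1760 in Gcg-only and 966 and 806 in insulin-only cells. Cells in which no hormone reached 1% had 737 and 668 CPM of it. Sst-only cells were higher than Gcg-only cells by edgeR for Tspan8 (log2 fold change 3.90), Olfm3 (2.36), Folr1 (2.31) and Sult1d1 (2.22), while Ugt2b34 was lower (−3.60) and Limch1 and Hspb8 were not called. In this comparison 9.51% of all genes tested were higher and 8.17% lower, and 53.8% of the calls were higher, a share that became 83.1% when the sums were scaled by library size alone. None of the directions of the 7 genes turned under that scaling. Gcg-only cells had less Limch1 than insulin-only cells, by a log2 fold change of −4.33, and also less Tspan8 (−1.73), Sult1d1 (−1.68) and Folr1 (−0.63), but more Olfm3 (4.09, against 3 and 0 UMIs in insulin-only cells, a value that depends on the prior count). Each of these 5 was called by edgeR where 17% of genes tested were higher and 17.9% lower, with 48.6% of calls higher, or 78.2% under scaling by library size alone. These groups had been part of the cells set against gamma cells when the genes were picked.

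The level of a gene in a group with 2 hormones can be placed on a scale from its level in the single-hormone cells, 0%, to that in Ppy-only cells, 100%. In Gcg+Ppy cells Ppy stood at 27.2% in library 1 and 26.9% in library 2. Hspb8 stood at 32.9% and 31.6%, Olfm3 at 35.1% and 36.1%, Folr1 at 25.7% and 30.8%, Ugt2b34 at 26.5% and 20.5%, and Tspan8 at 17.5% and 23.6%. These 5 were within 10 percentage points of Ppy in both libraries. Hspb8 and Olfm3 were above Ppy in both, and Tspan8 and Ugt2b34 were below it in both. Tspan8 had 150 and 225 UMIs, where the position of Ppy would give 222 and 253. Sult1d1, at 11.5% and 21.8%, was below Ppy in both libraries, and outside the 10 percentage points in library 1.

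Limch1 stood at −0.20% and −2.43%. At the position of Ppy it would have had 47.9 and 91.3 UMIs, where 1 and 4 were counted. Of 17 genes with at least 50 CPM in Ppy-only cells and at least 4 times their Gcg-only level in both libraries, the median position was 20.6%, and Limch1 was the only 1 below 5% in both libraries. The 47.9 and 91.3 UMIs are what RNA of Gcg-only and Ppy-only cells, mixed in the proportion that Ppy gives, would hold. Whether Gcg+Ppy cells hold such mixtures was not tested.

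**Figure D3:**
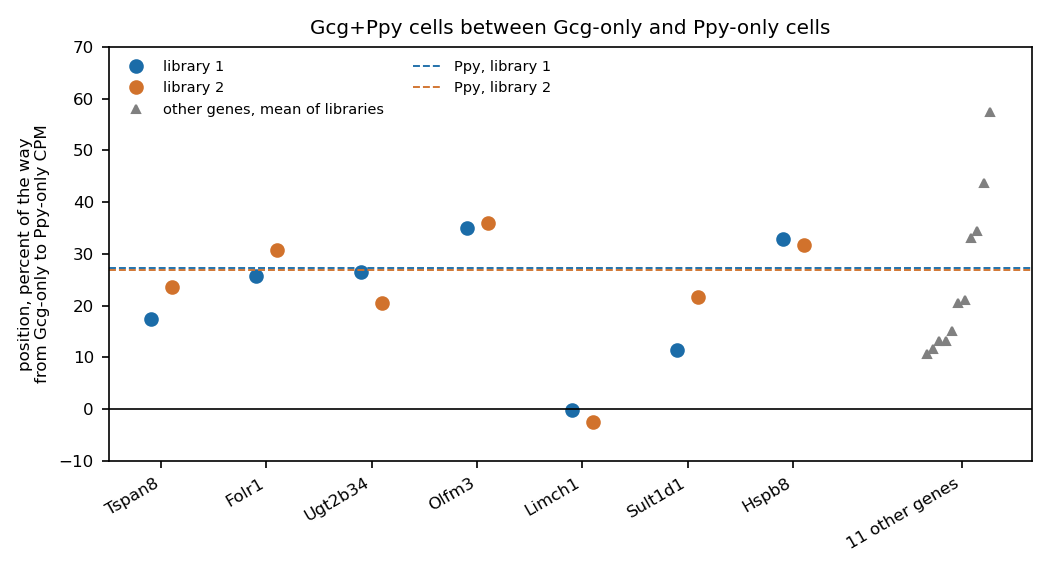
Position of each gene in Gcg+Ppy cells between its CPM in Gcg-only cells (0%) and in Ppy-only cells (100%), 1 point per library, with dashed lines at the position of Ppy (27.2% and 26.9%) and triangles for the mean over libraries of 11 other genes that are high in Ppy-only cells. Limch1 lies at about 0, and 5 of the other 6 genes lie within 10 percentage points of Ppy in both libraries.

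In Sst+Ppy cells the scale is wide for 3 of the genes only. The other 4 were about as high in Sst-only as in Ppy-only cells or, as for Tspan8, differed between them by less than 2-fold. Ppy stood at 17.8% and 23.6%. On its narrower scale Tspan8 stood at 23.2% and 32.0%, above Ppy in both libraries. It had 379 and 431 UMIs, where the position of Ppy would give 363 and 411. Ugt2b34 stood at 4.05% and 12.2%, Hspb8 at 6.62% and 14.5%, and Limch1 at 17.8% and 7.64%. The median of 32 genes chosen by the same limits, with Hspb8, Limch1 and Ugt2b34 among them, was 13.4%. Ugt2b34 and Hspb8 lay below Ppy in both libraries.

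Counted against Ppy itself, Tspan8 had 1.38 and 1.28 UMIs per 1000 UMIs of Ppy in Ppy-only cells and 0.996 and 1.21 in Gcg+Ppy cells, where it was lower in both libraries. In Sst+Ppy cells the ratio was 4.67 and 3.82. For Limch1 it was 0.317 and 0.452 in Ppy-only, 0.00664 and 0.0215 in Gcg+Ppy, and 0.431 and 0.302 in Sst+Ppy cells. The Limch1 ratios of Sst+Ppy and Ppy-only cells overlapped, but with the highest cell of each library left out their means were 0.203 in Sst+Ppy and 0.346 in Ppy-only cells, from 0.366 and 0.384. The ratio in Gcg+Ppy cells was below that of both other groups in both libraries.

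The levels also differed with the share of Ppy in a cell. In Gcg cells Tspan8 had 6.75 and 10.05 CPM when Ppy was under 0.1% of UMIs, 20.05 and 14.5 CPM from 0.1% to 1%, 33.9 and 38.2 CPM just above the gate, from 1% to 5%, and 138 and 225 CPM from 5% on. Folr1 went from 38.7 and 49.7 CPM at 1% to 5% to 118 and 132 CPM above, Olfm3 from 4.84 and 14.2 to 40.6 and 40.8, and Hspb8 from 16.1 and 26.6 to 45.9 and 48.3. The upper bin held 31 and 35 cells, with a median of 29325 and 20999 UMIs against 16955 and 18474 in the bin below. It gave 129 of the 150 and 182 of the 225 UMIs of Tspan8 in Gcg+Ppy cells. At 1% to 5% of Ppy, Olfm3 was near its level in Gcg-only cells.

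Ugt2b34 differed in this too, with 91.9 and 101.2 CPM in Gcg cells at 1% to 5% of Ppy and 97.1 and 113 CPM above. Limch1 had 0 UMIs in library 1 and 4 in library 2 in the Gcg cells with most Ppy.

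In Sst cells, Limch1 had 12.2 and 6.27 CPM at 1% to 5% of Ppy and 84.0 and 81.2 CPM from 5% on, and Ugt2b34 had 6.10 and 8.36 and then 69.4 and 69.6 CPM. Hspb8 went from 21.3 and 13.6 to 32.9 and 55.1 CPM. Tspan8 went from 289 and 297 to 347 and 426 CPM, and Folr1 from 139 and 156 to 183 and 264 CPM. At 0.1% to 1% of Ppy, however, Folr1 had 250 and 147 CPM. Olfm3, at 50.8 and 57.4 and then 40.2 and 52.2 CPM, and Sult1d1, at 135 and 91.9 and then 106 and 87.0 CPM, did not go up. The upper bin of Sst cells held 13 cells in each library, and the Limch1 level there came from 23 and 28 UMIs. In library 2 a single cell held 23 of those 28. Single cells also held 9 of the 19 Ugt2b34 UMIs of this bin in library 1 and 11 of the 24 in library 2.

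**Figure D4:**
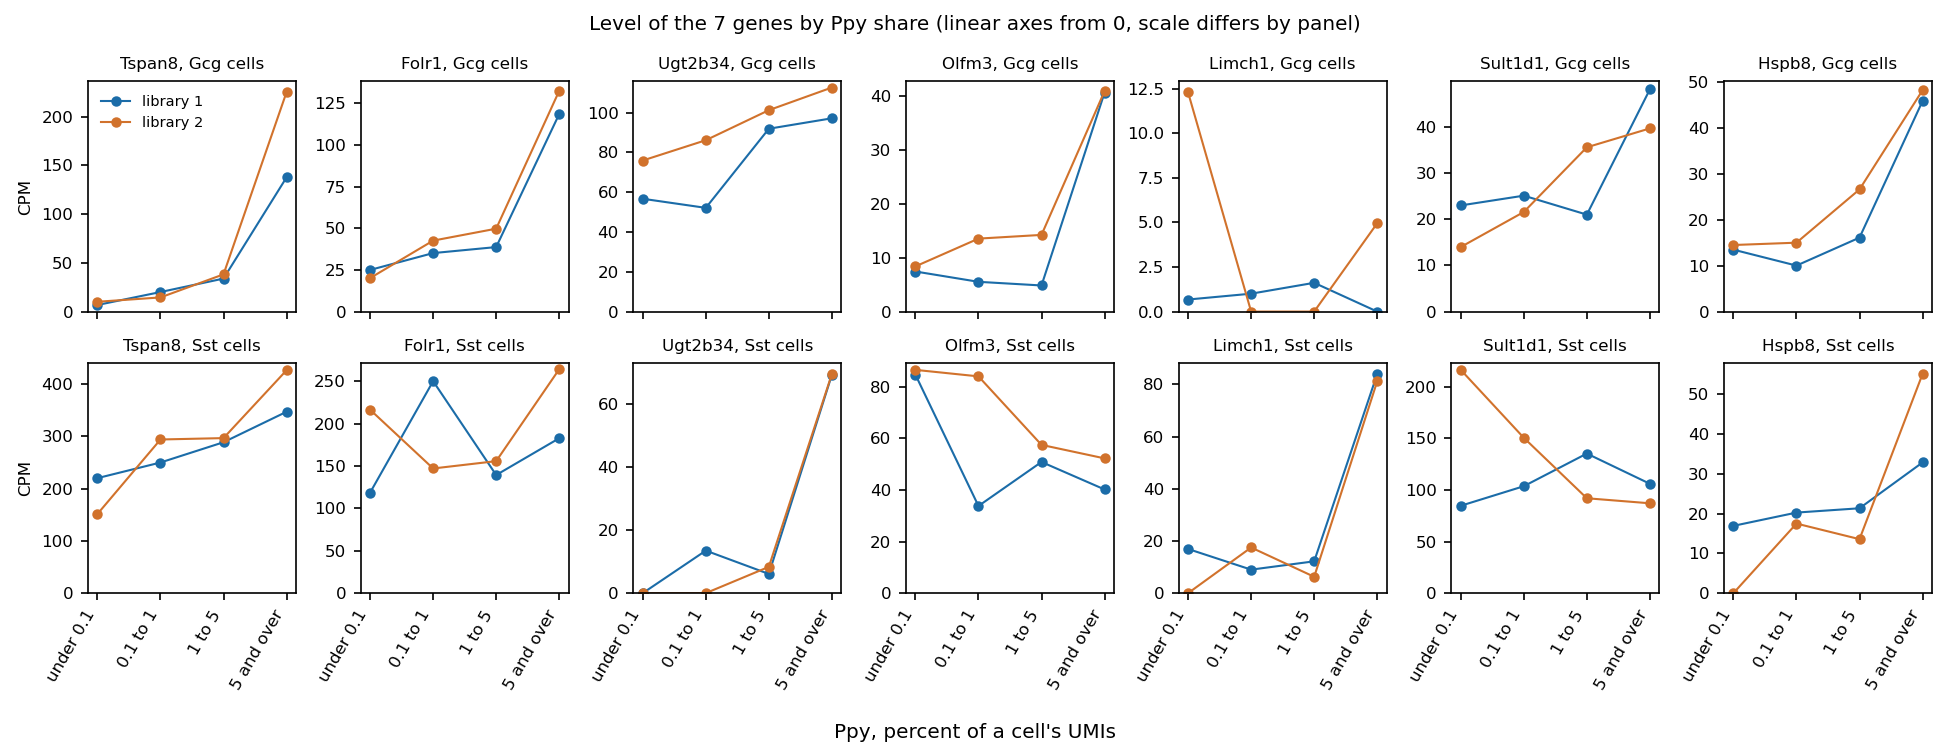
CPM of the 7 genes (linear axes from 0, each panel with its own scale) in Gcg cells (top row) and Sst cells (bottom row) in 4 bins of the share of Ppy in a cell's UMIs, 1 line per library. Tspan8, Folr1, Olfm3 and Hspb8 go up in the last bin of Gcg cells while Limch1 stays at 0 and 4 UMIs there. In Sst cells Limch1, Ugt2b34, Hspb8, Tspan8 and Folr1 go up from the third bin to the last, which holds 13 cells per library. A single cell of library 2 holds 23 of the 28 Limch1 UMIs of that last bin.

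Relatives of the 7 genes and partners in their pathways were tested in the same fit, in lists drawn up beside them. Between Gcg+Ppy and Gcg-only cells, 0 of 19 tetraspanins, 0 of 19 folate and one-carbon genes, 0 of 11 genes of glucuronidation and sulfation, 0 of 15 actomyosin and LIM partners and 0 of 9 small heat shock proteins and Bag3 partners passed in either direction. Of 7 genes with an olfactomedin domain, 1 was lower, and that was Olfm1, the close relative of Olfm3. It had 57.5 and 79.7 CPM in Gcg-only, 25.05 and 35.67 in Gcg+Ppy and 4.45 and 6.04 in Ppy-only cells, and fell by 1.13 on the log2 scale (edgeR adjusted p = 0.00311). Olfm1 and Olfm3 thus went in opposite directions between these cells. Between Sst+Ppy and Sst-only cells 0 genes of any of these lists passed.

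Of the gamma cell markers, 1 of 9 was higher in Gcg+Ppy than in Gcg-only cells, and this was Pyy (peptide YY, a relative of Ppy), with a log2 fold change of 2.12 (edgeR adjusted p = 1.34e-12). Pyy stood at 53.1% and 61.6% of the way to Ppy-only cells, further than any of the 7 genes. Of the beta cell markers, 1 of 10 was higher, Nkx6-1, by 0.76 (edgeR adjusted p = 0.0107), and of the delta markers 1 of 9 was lower, Rbp4, by a log2 fold change of −0.69 (adjusted p = 0.000575).

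Over the 12 sums of cells, the mean profile of the 7 genes was nearest to that of Snhg18, a noncoding host of small nucleolar RNAs (Pearson r = 0.967), then Depp1 (0.940), Tspan15, another tetraspanin (0.918), and Dner (0.914), among 11729 genes compared. These are descriptions across 12 sums that share 2 libraries. Snhg18 had 51.7 and 43.4 CPM in Ppy-only, 23.8 and 21.1 in Sst-only and 7.19 and 9.50 in Gcg-only cells. Within the 7, Tspan8 and Folr1 were the closest pair (r = 0.973), and Ugt2b34 was the furthest from the mean profile (r = 0.129).

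Cells with insulin and Ppy numbered 12 in library 1 and 8 in library 2, below the minimum of 10 per library, so they were not tested. In them Folr1 had 341 and 303 CPM, above Ppy-only cells in both libraries, Tspan8 221 and 303 CPM, and Ugt2b34 104 and 139 CPM. Limch1 had 50.1 and 108 CPM and Olfm3 13.4 and 20.5 CPM. Scrublet called 2 of these 20 cells as doublets.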

How the data were processed

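For either library, the authors deposited a table of whole-number counts, the deduplicated UMIs of each gene in each cell barcode. Per their methods, Cytonaut made the tables with barcodes detected by UMI-tools and reads aligned to exons of GRCm38, and Seurat was used later. The strand setting and the handling of reads that fit several genes are not given in the sources used here. Where a table lacked a gene of the other, 0 was used.

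The members and gene lists were chosen with earlier results of these data known. Cells were grouped at 1% of UMIs per hormone. CPM are a gene's UMIs per 1000000 of all UMIs of a group in a library, hormones included. Counts were summed for 6 groups in 2 libraries, and a quasi-likelihood model of edgeR 4.0.16 (R 4.3.3) was fitted to the 12 sums with filterByExpr, TMM, glmQLFit and glmQLFTest, with 6 residual degrees of freedom. Benjamini-Hochberg adjustment ran over 13507 genes at a threshold of 0.05. The common biological coefficient of variation was 9.01%. An SE is the absolute log2 fold change divided by the square root of F. TMM factors corrected for the share taken by hormones, so log2 fold changes are not ratios of the printed CPM. The libraries are technical replicates, so p-values measure only the spread between technical replicates, and the sums of a library share that library. The test was tried on counts drawn independently from the fitted means with known changes, so that trial does not cover sums that share a library. Counts of cells and UMIs carry counting error only.

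Alternatives were DESeq2 1.42.0, no filter on low counts, the library as a replicate block, thresholds of 0.5% and 2%, removal of the 8 and 8 Scrublet calls (scanpy 1.11.5), removal of 192 cells with over 2 times their library's median UMIs, thinning to 4000 UMIs, hormone genes left out, and each library left out. Scaling by library size alone and leaving out the top cell of each gene were added after seeing the data. The genes named beside the members were set by rule: at most 3 per list and comparison, and the 10 most alike profiles with a mean of at least 5 CPM, of which the first 4 are given. Doublets were kept otherwise. Promoters came from RefSeq (GRCm38.p6), matched by symbol for 6 of the 7 genes, and positions from GENCODE M21.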

Additional observations from a re-analysis of the deposited data

Results flagged for a closer look

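The change of Tspan8 with Ppy was larger in cells with Gcg than in cells with Sst, by 2.63 on the log2 scale (edgeR adjusted p = 3.02e-08), and that of Folr1 by 1.64 (edgeR adjusted p = 0.00136). Both stand out because the difference between the 2 kinds of cell passed its own test. The changes started from unlike levels, with means of 13.4 CPM of Tspan8 in Gcg-only and 260 in Sst-only cells, and 31.4 and 196 for Folr1. On the scale from single-hormone to Ppy-only cells, Tspan8 stood at 17.5% and 23.6% in Gcg+Ppy cells. In Sst+Ppy cells it stood at 23.2% and 32.0%, higher in each library, so the order depends on the scale. For Tspan8 the adjusted p over the alternatives ran from 2.99e-24 to 0.00103, and for Folr1 from 8.13e-08 to 0.0675, the last after thinning to 4000 UMIs.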

How the results depend on the processing

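The calls of Tspan8 and Folr1 in Gcg+Ppy against Gcg-only cells held under every alternative with a test, with the replicate block included, and the number of the 7 genes called there was 4 under the replicate block as before.
Thinning to 4000 UMIs left 2 called, DESeq2 2 (with no adjusted p for the other 5), and the absence of a filter gave 6. Thinning gave log2 fold changes of 1.99 for Olfm3 and 1.68 for Hspb8, neither called, and 1 of the 7 genes called for the difference between Gcg and Sst cells, where Folr1 had 1.88 and was not called. Without the filter Ugt2b34 (0.58) and Sult1d1 (0.84) were called in Gcg cells. At a threshold of 2% Olfm3 (2.24) was called for the difference between Gcg and Sst cells.
Limch1 turned from −1.20 to 0.85 without deep cells and to 1.15 after thinning, and its difference between Gcg and Sst cells to 0.60 and 0.58. Olfm3 in Sst cells turned from −0.05 to 0.0030 without the filter and to 0.077 without the top cells, and Sult1d1 there to 0.12 at 0.5%. Hspb8 between Sst-only and Gcg-only cells turned from 0.08 to −0.0048, −0.25 and −0.35 without the filter, at 0.5% and without the top cells, and between Gcg-only and insulin-only cells to −0.30 after thinning. None of these was called, and the cause was not tested.
The number of all genes called moved from 47 to 188 without the filter, 79 at 2% and 18 after thinning in Gcg cells. In Sst cells it moved from 4 to 61 without the filter, 9 with the replicate block, 7 by DESeq2, 8 at 2%, 10 without Scrublet calls and 1 after thinning. For the difference it moved from 17 to 70 without the filter and 3 after thinning. Between single-hormone cells thinning gave 935, 2051 and 1053 in place of 2388, 4711 and 2794, with fewer UMIs by construction, and scaling by library size alone gave 5850 for Sst-only against insulin-only cells.
With 1 library left out there was no test. Limch1 then ran from −1.47 to −0.32 in Gcg cells, Tspan8 in Sst cells was 0.39 with either library, and Ugt2b34 there from 0.83 to 8.50, a value against 0 UMIs that is set by the prior count. For the difference, Ugt2b34 ran from −8.12 to 0.064, Olfm3 from 1.65 to 1.74 and Limch1 from −2.38 to −1.89.
Scaling by library size alone moved the median of all genes by 0.73 for Sst-only against insulin-only cells, by up to 0.37 for the other single-hormone pairs and by less than 0.11 with Ppy. The share of calls that were higher was 75% in Sst cells and 85.7% by DESeq2, and for the difference 64.7%, 75% by DESeq2 and 78.6% by library size. Of 126 ratios to Ppy under alternatives, 56 moved by more than the spread between libraries. Depth limits Ugt2b34, Limch1 and Hspb8 in Sst cells, with 0 to 10 UMIs per Sst-only library.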

Other observations

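In 91 cells of library 1 and 92 of library 2 no hormone reached 1% of UMIs. Of the Folr1 UMIs in these cells, 3 cells held 99.3% in library 1 and 88.9% in library 2. Limch1 had 71.4 and 83.6 CPM in these cells, above insulin-only cells in both libraries, and Olfm3 had 0 UMIs in library 1 and 1 in library 2. Hspb8 had 5.01 and 39.3 CPM, but a single cell held 53 of its 85 UMIs in library 2, and without the highest cell of each library it had 3.13 and 14.8 CPM.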
